A study of Mus musculus with 57 samples.

Results

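The surroundings of Sox2, the gene of a transcription factor that maintains pluripotency, were followed through 30 lists of CUT&RUN peaks. CUT&RUN maps a protein on chromatin by directing a nuclease to it with an antibody and sequencing the fragments that are cut out. The members were all peaks whose summit, the base with the highest fragment pileup, lay within 150 kb of the Sox2 start site (mouse build mm10, chr3:34650405 on the plus strand, GENCODE annotation). They numbered 337 of the 775358 peaks in the lists. Peaks that overlapped were merged, which gave 70 of the 202064 sites of the genome. Each site is named by the distance of its strongest summit, the one with the highest −log10 q (the significance given by the peak caller), from the start site in kb, with + for downstream and − for upstream. The distal control region was taken as the stretch from 100 to 120 kb downstream and held 100 of the peaks in 10 of the sites.

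All cells were mouse KH2 embryonic stem (ES) cells of strain C57BL/6 per the labels. They carried TRE:GATA6-DSREd2, a doxycycline-driven transgene for GATA6, the transcription factor that starts primitive endoderm (PrE) formation, and for the fluorescent protein DsRed2. Per the study's methods the transgene was present as a single copy and its GATA6 had a FLAG tag. Cells at 0 h were grown in 2i medium with LIF and without doxycycline, those at 2, 4 and 8 h in serum with LIF and 1 µg/mL doxycycline, and those at 24 and 48 h had 12 h of doxycycline and then serum without it. The time of induction and the change of medium therefore cannot be told apart in any comparison with 0 h. Likewise, time and the withdrawal of doxycycline cannot be told apart where 2, 4 or 8 h are compared with 24 or 48 h. Titles of the GATA6 48 h libraries carry the letters JT and the word merged, and those of 2 to 8 h the letters DL. At 0 h the GATA6 title of replicate 1 carries DL and that of replicate 2 carries JT. The labels do not say what these mean. The 15 groups held 2 replicate lists each. GATA6 was profiled over 5 times from 0 to 48 h (not 24 h), both NANOG and SOX2 over the first 4 of them, and the later PrE factors GATA4 and SOX17 once, 24 h after induction. The study states that replicates were run independently, but the labels name no separate cultures, so p-values measure only the spread between these libraries, which may be technical. The 6 GATA6 lists attached to the 4, 8 and 48 h samples carry one another's names, and the times used here are those in the names.

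Sox2 is an intronless gene that lies within the long noncoding transcript Sox2ot. In ES cells its transcription is known to depend on a cluster of enhancers far downstream, the Sox2 control region, to which pluripotency factors including NANOG, OCT4 and SOX2 itself bind. Enhancers close to the gene, SRR1 upstream and SRR2 downstream, are known to be active in stem cell reporters as well. In the blastocyst Sox2 stays on in the epiblast and is switched off in the PrE, where GATA6, GATA4 and SOX17 are expressed. GATA factors recognise the letters GATA with short flanks, and SOX factors recognise a core around TTGT.

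Of the 70 sites, 21 lay upstream and 49 downstream of the start site. By the GENCODE annotation 36 fell within Sox2ot, 30 were intergenic and 4 lay in the long noncoding RNA gene Gm38509. A total of 29 sites held a peak of both replicates of at least 1 group, which was 41.4% of the 70 against 33.5% of all sites of the genome. Of these, 15 lay more than 60 kb downstream. With replicate 1 of GATA6 at 2 h taken alone in place of both replicates, the number was 44. The other 41 sites were weaker, with a highest fold of 2.93 to 9.03 (median 4.30), and 29 of them were found in 1 list only. Fold is the caller's ratio of the pileup at the summit to the background around it, with 1 added to both, which lowers folds most where coverage is low, as in the SOX2 lists.

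**Figure D1:**
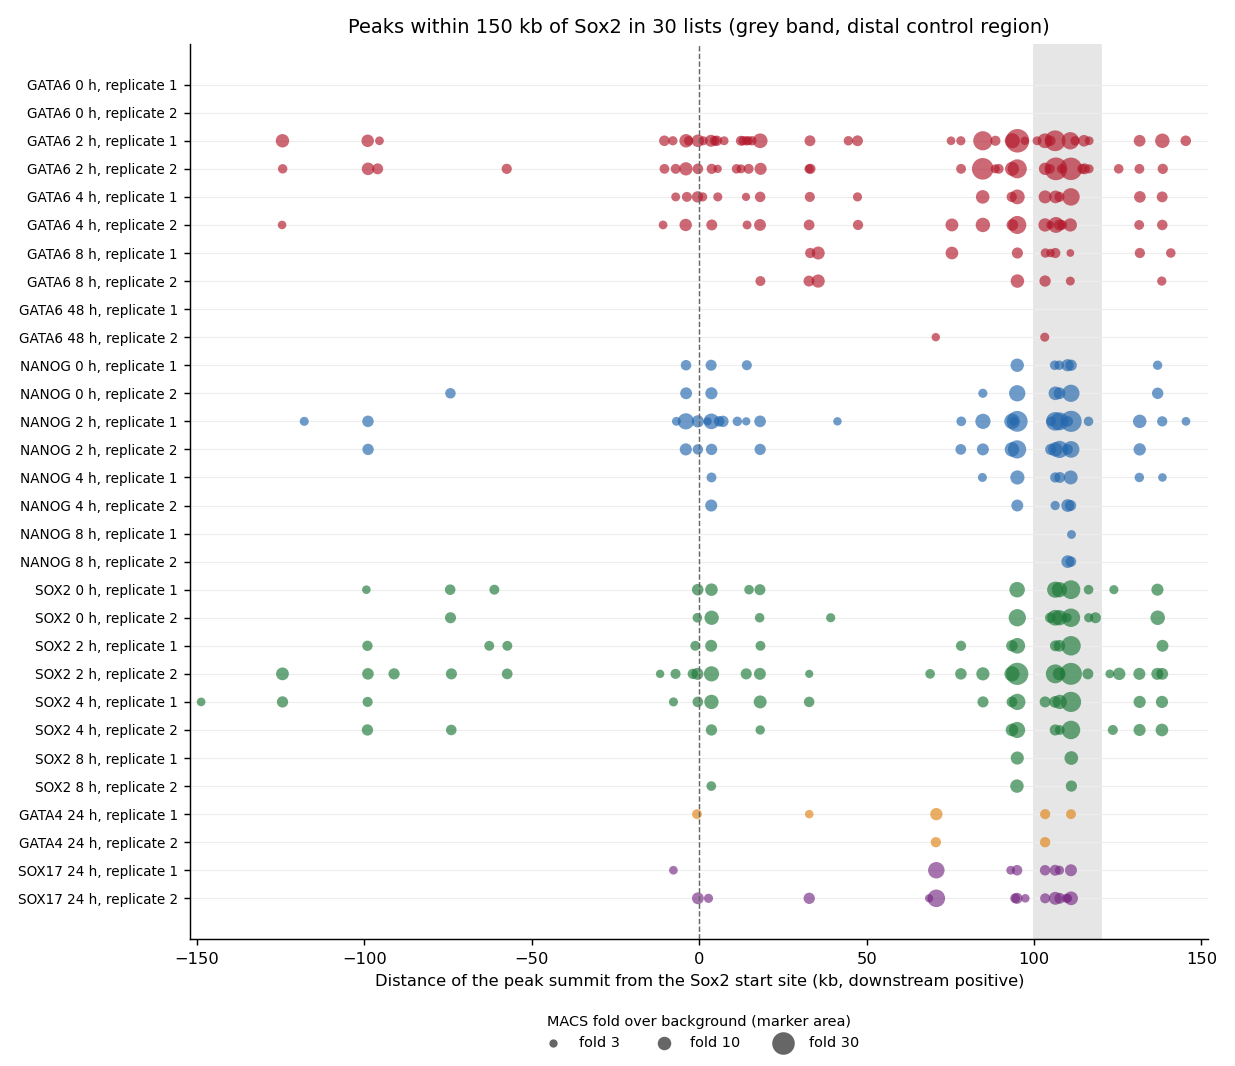
Each row is 1 list and each point a peak, placed by the distance of its summit from the Sox2 start site in kb (dashed line at 0), with marker area growing with fold and the distal control region in grey. Peaks of GATA6, NANOG and SOX2 repeat at +95.0 kb and inside the grey band, the GATA6 2 h lists hold 40 and 33 peaks, and the rows at GATA6 0 h are empty.

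The sequences on which the results turn are shown first, so that the letters under each summit can be read beside the values. They span 100 bases on each side of the strongest summit, on the plus strand of GRCm38.p6, the same assembly as mm10. For the site at +110.8 kb, which had more than 1 summit, 300 bases are given, starting 60 bases before the strongest one. The Sox2 promoter is the RefSeq entry, 250 bases upstream of the RefSeq start, which lies 410 bp before the GENCODE start. Capitals mark matches on either strand to 4 kinds of motif. The GATA words were AGATAA or its variant AGATAG, together with the word TGATAA or its variant TGATAG. The core bound by SOX factors was searched as CNTTGT. The octamer bound by OCT4 was searched as ATGCNAAT. In the SOX-octamer pair a SOX core stands 1 base before most of an octamer, so these matches overlap.
Site at +95.0 kb, chr3:34745334-34745534: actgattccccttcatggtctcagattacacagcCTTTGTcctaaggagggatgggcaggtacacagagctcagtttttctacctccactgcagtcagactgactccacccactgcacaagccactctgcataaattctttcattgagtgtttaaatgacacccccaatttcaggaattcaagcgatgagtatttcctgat
Site at +106.3 kb, chr3:34756595-34756795: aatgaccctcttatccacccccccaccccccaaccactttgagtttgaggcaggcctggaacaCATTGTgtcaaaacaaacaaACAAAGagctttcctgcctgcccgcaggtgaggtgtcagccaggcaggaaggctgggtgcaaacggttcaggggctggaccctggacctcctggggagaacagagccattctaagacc
Summit at +107.6 kb, chr3:34757893-34758093: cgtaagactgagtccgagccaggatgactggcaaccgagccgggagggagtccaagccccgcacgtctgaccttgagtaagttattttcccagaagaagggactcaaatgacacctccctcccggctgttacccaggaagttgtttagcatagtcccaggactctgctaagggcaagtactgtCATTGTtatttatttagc
Site at +110.8 kb, chr3:34761182-34761481: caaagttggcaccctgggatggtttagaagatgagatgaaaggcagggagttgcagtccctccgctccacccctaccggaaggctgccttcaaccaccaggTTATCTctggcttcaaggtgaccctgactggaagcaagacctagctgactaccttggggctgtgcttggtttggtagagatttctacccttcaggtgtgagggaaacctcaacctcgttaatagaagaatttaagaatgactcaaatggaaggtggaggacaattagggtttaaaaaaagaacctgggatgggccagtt
Site at +84.7 kb, chr3:34734974-34735174: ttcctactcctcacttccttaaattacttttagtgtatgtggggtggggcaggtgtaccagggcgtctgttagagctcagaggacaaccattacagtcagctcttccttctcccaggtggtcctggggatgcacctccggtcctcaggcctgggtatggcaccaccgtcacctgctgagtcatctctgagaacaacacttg
Site at +3.6 kb, chr3:34653922-34654122: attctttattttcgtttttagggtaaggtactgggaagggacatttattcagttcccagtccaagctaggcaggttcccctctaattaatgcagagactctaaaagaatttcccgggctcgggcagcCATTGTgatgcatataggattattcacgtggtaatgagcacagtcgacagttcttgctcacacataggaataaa
Site at −4.0 kb, chr3:34646308-34646508: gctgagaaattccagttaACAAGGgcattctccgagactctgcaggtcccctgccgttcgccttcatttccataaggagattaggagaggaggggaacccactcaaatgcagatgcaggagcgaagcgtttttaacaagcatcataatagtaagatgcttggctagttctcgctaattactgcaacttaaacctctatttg
Site at +70.8 kb, chr3:34721114-34721314: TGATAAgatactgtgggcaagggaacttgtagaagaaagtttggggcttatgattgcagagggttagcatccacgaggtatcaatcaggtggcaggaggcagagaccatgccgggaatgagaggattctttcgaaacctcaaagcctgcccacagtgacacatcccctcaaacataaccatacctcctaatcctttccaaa
Sox2 promoter, chr3:34649745-34649994: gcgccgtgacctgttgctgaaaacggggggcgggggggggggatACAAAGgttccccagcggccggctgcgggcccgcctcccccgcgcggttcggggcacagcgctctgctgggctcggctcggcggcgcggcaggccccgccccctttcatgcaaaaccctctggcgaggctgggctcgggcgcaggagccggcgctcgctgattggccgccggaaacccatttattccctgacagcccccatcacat

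Within 100 bp of the strongest summit, GATA words were found in 26 of the 70 sites (37.1%), against 40.8% of all 202064 sites of the genome. SOX cores were found in 33 sites (47.1%, against 43.4%). The octamer was in 1 site (1.43%, against 4.08%), and the pair was in none of the 70 sites and in 0.0445% of all sites. Among the 23 sites with GATA6 in both 2 h lists, 11 held a GATA word (47.8%), against 53.7% of the 44770 such sites of the genome. Among the sites with the highest GATA6 folds, there was no GATA word within 100 bp of the strongest summit at +84.7, +95.0 and +106.3 kb and 1 at +110.8 kb. These counts depended on the summit taken. Around the GATA6 summit with the highest fold there was 1 GATA word at +106.3 kb and 0 at +110.8 kb, both in replicate 2 of 2 h, and around the highest NANOG, SOX2 and SOX17 summits at +95.0 kb there were 2. The SOX core at +3.6 kb was followed directly by gatgcatat. A match or its absence is a description of these letters and not of binding.

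In the GATA6 lists, no peak lay within 150 kb of Sox2 before induction, 33 to 40 did at 2 h, and the number then fell until 48 h. Replicates 1 and 2 held 0 and 0 peaks at 0 h, 40 and 33 at 2 h, 18 and 20 at 4 h, 10 and 7 at 8 h, and 0 and 2 at 48 h. The replicates of successive times from 2 h on did not overlap. The mean was 36.5 ± 4.95 (SD, n = 2) at 2 h and 1.00 ± 1.41 (n = 2) at 48 h, and the number differed between the 5 times (exact permutation test of the F statistic, p = 0.00317, the smallest that the 113400 arrangements allow, p = 0.0190 after Benjamini-Hochberg adjustment over the 9 tests made). By the times in the sample records, the means would run 36.5, 1, 19 and 8.5 from 2 to 4, 8 and 48 h. As a share of each list the number also differed between the 5 times (exact permutation p = 0.00317). The 0 h lists entered this test with 0 peaks here, but they held only 86 and 882 peaks in all. The test does not single out 2 h against 48 h, where the shares were 5.15 ± 0.158 peaks per 10000 (n = 2) and 1.02 ± 1.45 (n = 2, 0 and 2.05). Most genes shared the direction: in 88.8% of 21755 windows of the same width around protein-coding genes, both 2 h lists held more peaks than both 48 h lists. For the successive steps, such separation of the replicates was found in 49.4% of windows for 2 h over 4 h. It was found in 65.9% for 4 h over 8 h and in 68.8% for 8 h over 48 h.

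NANOG, a homeodomain factor of the pluripotency network, had peaks near Sox2 before induction, most at 2 h and fewest at 8 h. Its lists held 9 and 9 peaks at 0 h, 27 and 15 at 2 h, 8 and 5 at 4 h, and 1 and 2 at 8 h. All 2 h values were above all values of the other times, and the 8 h values were the lowest. The number differed between times (exact permutation test, p = 0.00952, the smallest that 2520 arrangements allow, adjusted p = 0.0214). As a share of the list it did not pass the test (6.99 ± 2.02 per 10000 at 0 h, 5.39 ± 0.315 at 2 h, n = 2 each, exact permutation p = 0.848), and the whole lists held 26742 and 52285 peaks at 2 h against 2255 to 16180 at the other times. Without either replicate of 0, 4 or 8 h the exact permutation p for the number was 0.0762 to 0.133. Many genes shared the separation of the replicates. Both NANOG 2 h lists held more peaks than both 0 h lists in 64.5% of the 21755 gene windows, and more than both 4 h lists in 59.4%. Both 4 h lists held more than both 8 h lists in 48.2%.

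SOX2 binding to the surroundings of its own gene was broad until 4 h and sparse at 8 h. The lists held 14 and 14 peaks at 0 h, 13 and 27 at 2 h, 17 and 12 at 4 h, and 2 and 3 at 8 h. The 8 h values lay below all others, while the earlier times overlapped, and the number did not pass the test over the 4 times (exact permutation p = 0.114, adjusted p = 0.129). Without replicate 1 of 2 h the exact permutation p was 0.0286. Per 10000 peaks of the list the values differed (exact permutation p = 0.0476). In the 21755 gene windows, both SOX2 8 h lists held fewer peaks than both 0 h lists in 61.2%. They held fewer than both 2 h lists in 54.9% and fewer than both 4 h lists in 58.8%.

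**Figure D2:**
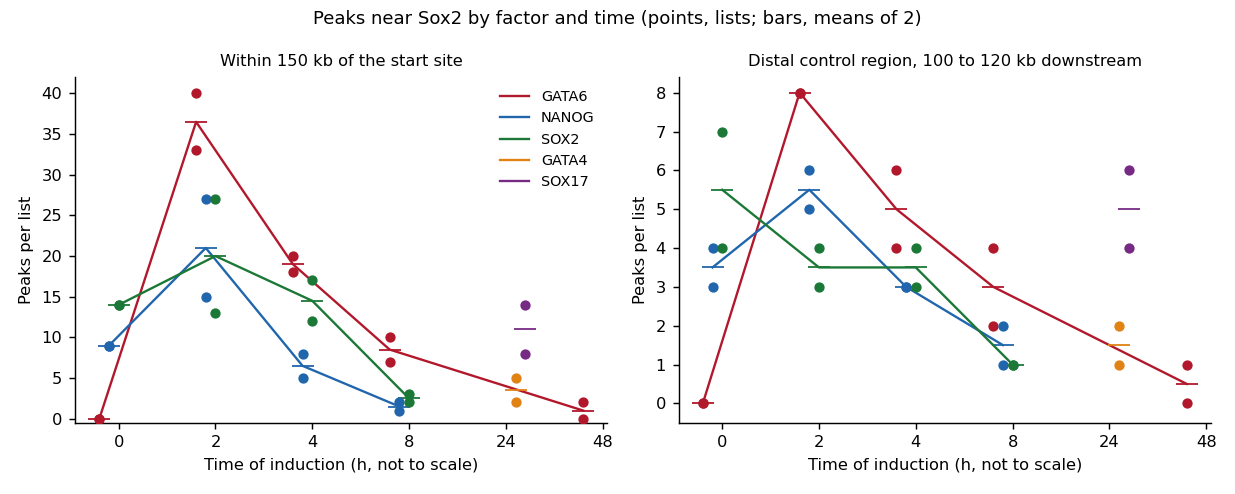
Points are lists and bars means of 2 for the number of peaks (y axis) by time of induction in h (x axis, not to scale), within 150 kb of the start site on the left and in the distal control region on the right. GATA6 and NANOG are highest at 2 h, with means of 36.5 and 21 on the left, and the GATA6, NANOG and SOX2 lists hold 0 to 3 peaks at their last time.

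In the distal control region GATA6 and NANOG peaks were also most numerous at 2 h. GATA6 replicates had 0 and 0 peaks there at 0 h, 8 and 8 at 2 h, 4 and 6 at 4 h, 4 and 2 at 8 h, and 0 and 1 at 48 h (exact permutation p = 0.00635, the smallest allowed by these tied values, adjusted p = 0.0190). NANOG had 4 and 3 peaks at 0 h, 6 and 5 at 2 h, 3 and 3 at 4 h, and 1 and 2 at 8 h (exact permutation p = 0.0286, adjusted p = 0.0514). SOX2 had 4 and 7 at 0 h, 3 and 4 at 2 h, 4 and 3 at 4 h, and 1 and 1 at 8 h (exact permutation p = 0.0857, adjusted p = 0.110), and without replicate 1 of 0 h the exact permutation p was 0.0286. Per 10000 peaks of the list, neither GATA6 nor NANOG differed between times by this test (exact permutation p = 0.206 and 0.733), and the NANOG mean of 2 h minus that of 8 h was then −3.83 peaks per 10000.

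The strength of the best peak in the region gave a further measure. For GATA6 its fold was 25.3 and 30.6 at 2 h, 17.6 and 14.3 at 4 h, 5.20 and 6.67 at 8 h and 3.88 in replicate 2 of 48 h, with no peak at 0 h or in replicate 1 of 48 h. The times differed on the log2 scale, with lists without a peak set to their lowest fold (exact permutation p = 0.00423, adjusted p = 0.0190). These stand-in folds were 2.85 and 3.45 at 0 h and 1.71 in replicate 1 of 48 h, and they do not measure the region. Ranked within each list, the best peak stood above 97.1% and 98.7% of all peaks at 2 h, 94.8% and 89.0% at 4 h and 39.8% and 57.6% at 8 h. For NANOG the best fold was 7.89 and 17.1 at 0 h, 26.2 and 17.0 at 2 h, 10.7 and 8.79 at 4 h and 3.58 and 8.70 at 8 h, with overlapping replicates (exact permutation p = 0.171, adjusted p = 0.171). For SOX2 it was 20.5 and 19.7 at 0 h, 22.1 and 28.4 at 2 h, 23.8 and 19.9 at 4 h, and 10.3 and 6.50 at 8 h. All 8 h values of SOX2 lay below all others (exact permutation p = 0.0476, adjusted p = 0.0714), and p was 0.0571 to 0.0857 without replicate 1 or 2 of 0 h, replicate 2 of 2 h or either replicate of 4 h.

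The depth behind these values was the coverage taken as background by the peak caller, recovered from the deposited columns in all lists but those of GATA4. It was 0.287 and 0.315 fragments per base in the GATA6 0 h lists, 0.928 to 1.34 in the other GATA6 lists, 0.865 to 1.31 for NANOG, 0.290 to 0.692 for SOX2, and 1.23 and 1.55 for SOX17. At that background a called summit needed at least 4 to 8 fragments, and a site with fewer was not detectable. The GATA6 0 h lists held only 86 and 882 peaks and the GATA6 48 h lists 5933 and 9767, against 28676 to 79358 at 2 to 8 h. At 48 h the GATA6 background was 0.928 and 1.22. The part of depth in the differences was not tested.

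Sites called in both replicates give the positions behind these numbers. GATA6 had 0 of the 70 sites in both lists at 0 h (0.00148% of all sites of the genome), 23 at 2 h (32.9%, against 22.2%), 13 at 4 h (18.6%, against 16.9%), 5 at 8 h (7.14%, against 10.4%) and 0 at 48 h (against 2.07%). NANOG had 6 at 0 h (8.57%, against 3.75%), 13 at 2 h (18.6%, against 9.34%), 4 at 4 h (5.71%, against 3.43%) and 1 at 8 h (1.43%, against 0.247%). SOX2 had 9 at 0 h (12.9%, against 8.59%), 11 at 2 h (15.7%, against 8.85%), 9 at 4 h (12.9%, against 8.97%) and 2 at 8 h (2.86%, against 3.53%). GATA4 had 2 (2.86%, against 1.54%) and SOX17 5 (7.14%, against 9.44%) at 24 h.

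Most of the few sites held by NANOG or SOX2 at 0 h had GATA6 at 2 h, as did most such sites of the genome. Of the 6 sites with NANOG in both 0 h lists, at −4.0, +3.6, +95.0, +106.3, +110.8 and +136.9 kb, 5 had GATA6 in both lists at 2 h (83.3%, against 78% of the 7576 NANOG 0 h sites of the genome), the exception being +136.9 kb. Of the 9 sites with SOX2 in both 0 h lists, 7 had GATA6 at 2 h (77.8%, against 67.4%). At 8 h GATA6 remained in both lists at 2 of these 6 NANOG and 2 of these 9 SOX2 sites, +95.0 and +110.8 kb in each case (33.3%, against 32.6%, and 22.2%, against 26.5%). The call at +110.8 kb in replicate 1 of 8 h was near the threshold (−log10 q 1.36). At 4 h GATA6 was in both lists at 4 of the 6 NANOG sites (66.7%, against 59.8%). NANOG itself was called in neither 8 h list at 5 of its 6 sites (83.3%, against 85.6%), and SOX2 in neither 8 h list at 6 of its 9 (66.7%, against 59.5%). Each of these shares stands on 6 or 9 sites.

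Of the 23 sites with GATA6 at 2 h, 12 kept it in both lists at 4 h (52.2%, against 63.8%), 4 at 8 h (17.4%, against 38%) and 0 at 48 h (against 5.79%). NANOG was in both 2 h lists at 13 of the 23 (56.5%, against 36.8%). Of the 16 sites with GATA6 at 2 h and no NANOG peak at 0 h, 7 had NANOG in both lists at 2 h (43.8%, against 24.4% of 33971 such sites), namely −99.0, −0.4, +18.2, +78.1, +93.4, +105.0 and +131.6 kb.

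The site at +95.0 kb, 5 kb short of the region as defined here and intergenic, held the highest mean fold of NANOG in the window and was called in 22 of the 30 lists. GATA6 folds there were 32.8 and 21.04 at 2 h, 12.3 and 18.8 at 4 h, and 6.44 and 9.96 at 8 h, with no peak at 0 or 48 h. NANOG folds were 9.81 and 15.1 at 0 h, 25.4 and 19.2 at 2 h, and 11.1 and 7.53 at 4 h, with no peak in either 8 h list. SOX2 folds were 13.6 and 17.1 at 0 h, 13.9 and 29.0 at 2 h, 15.1 and 14.8 at 4 h, and 9.37 and 9.90 at 8 h. SOX17, an endoderm SOX factor, was present at 24 h with 5.65 and 6.34, and GATA4 was not called. For NANOG the 2 h lists lay above those of 0 and 4 h, and for SOX2 the 8 h lists lay below all earlier ones.

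The site at +110.8 kb, in the control region and intergenic, was called in 25 lists and in both replicates of 12 of the 15 groups, more than any other site of the window. SOX2 folds were 20.5 and 19.7 at 0 h, 22.1 and 28.4 at 2 h, 23.8 and 19.9 at 4 h, and 10.3 and 6.50 at 8 h. NANOG folds were 7.89 and 17.1 at 0 h, 26.2 and 15.8 at 2 h, 10.7 and 8.79 at 4 h, and 3.58 and 8.70 at 8 h. The NANOG values in replicate 1 of 0 h and replicate 2 of 4 and 8 h came from another summit further upstream in the same site, and those lists had folds of 6.70, 6.44 and 5.65 at +110.8 kb itself. It was the only site of the window with NANOG in both 8 h lists. The NANOG call in replicate 1 of 8 h was weak (−log10 q 1.95, rank 62.5% from the top of its list). GATA6 folds reached 17.3 and 29.8 at 2 h, then 17.6 and 9.62 at 4 h, and only 2.46 and 3.68 at 8 h, below every earlier value. These folds came from summits at different positions, and the pileups ranked the lists otherwise. The pileups were 119 and 62 at 2 h, 39 and 60 at 4 h, and 15 and 21 at 8 h. The call in replicate 1 of 8 h was near the threshold (−log10 q 1.36, rank 99.9% from the top of its list). SOX17 gave 7.61 and 10.3 at 24 h and GATA4 4.81 in replicate 1 only. GATA6 had no peak there at 0 or 48 h.

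The lists did not share 1 summit at +110.8 kb. Counted from the summit with the highest −log10 q, in replicate 1 of GATA6 at 2 h, GATA6 summits lay at 0 and 179 bp at 2 h, 180 and −6 bp at 4 h, and 2 and −5 bp at 8 h. Thus 4 of the 6 GATA6 lists, the reference list among them, had their summit within 10 bp of that point, 41 bp before a GATA word on the minus strand. Of these, the 8 h lists had the lowest GATA6 folds of the site (2.46 and 3.68). The GATA6 lists with the highest folds (29.8 and 17.6) had their summits at 179 and 180 bp, beside those of SOX2. By pileup and −log10 q, the highest GATA6 values of the site were those at 0 bp (119 and 105, replicate 1 of 2 h). At 179 and 180 bp the pileups were 62 and 39, with −log10 q of 80.8 and 40.7. In the 19 lists of the other factors the summit nearest to the 0 bp point lay 75 to 316 bp downstream of it. Of these lists, 7 had a further summit upstream, near +110 kb. SOX2 summits lay at 178 to 196 bp from 0 to 4 h and at 288 and 316 bp at 8 h, and NANOG summits between 75 and 237 bp. The 300 bases printed for this site cover the strongest summit and the SOX2 summits of 0 to 4 h. No test was made of this difference, which was noticed in these lists.

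**Figure D3:**
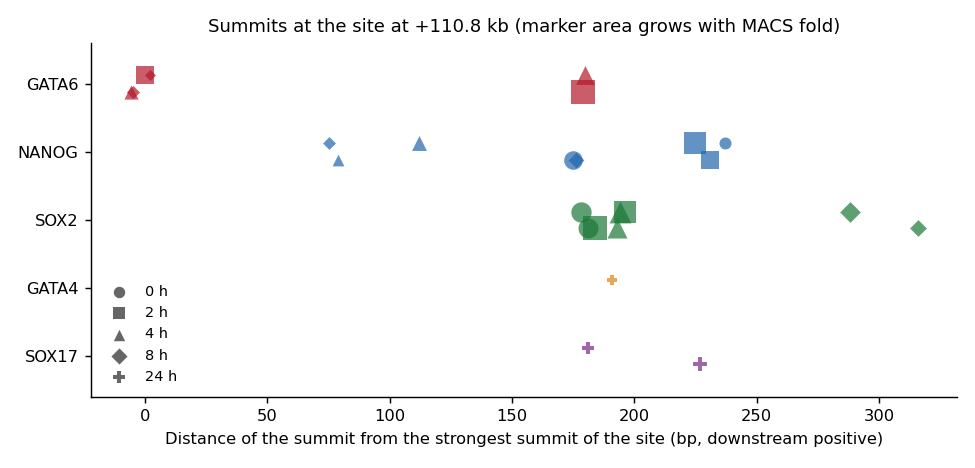
Distance of each list's summit from the strongest summit of the site at +110.8 kb in bp (x axis) by factor (y axis), with marker shape for the time, marker area growing with fold, and replicate 1 above replicate 2. GATA6 summits fall at −6 to 2 bp in 4 lists and at 179 and 180 bp in the other 2, while those of SOX2 lie at 178 to 316 bp.

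The site at +106.3 kb spanned a pair of summits 1298 bp apart, at +106.3 and +107.6 kb, and was called in 19 lists. In both GATA6 2 h lists a single peak covered both, with folds of 25.3 and 30.6. GATA6 folds were 8.83 and 14.3 at 4 h, and the site was called in replicate 1 only at 8 h, with 5.20. SOX2 folds were 14.8 and 13.9 at 0 h, 7.17 and 20.8 at 2 h, and 11.4 and 6.40 at 4 h, with no peak at 8 h. NANOG folds were 4.44 and 10.2 at 0 h, 20.0 and 17.0 at 2 h, and 6.12 and 4.07 at 4 h, with none at 8 h. SOX17 was present with 6.16 and 9.14. Of these values, NANOG in replicate 2 of 2 h and replicate 1 of 4 h and SOX2 in replicate 1 of 2 and 4 h came from the summit at +107.6 kb. The 2 h NANOG values lay above those of all other times, whereas the SOX2 times overlapped.

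Together these sites carried the strongest signal of the window. In 21 of the 27 lists with any peak in the window, the peak with the highest fold lay at +95.0, +106.3 or +110.8 kb, and 19 lists held peaks at all 3. The other 6 lists were all lists of GATA6 at 8 or 48 h, GATA4 or SOX17.

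**Figure D4:**
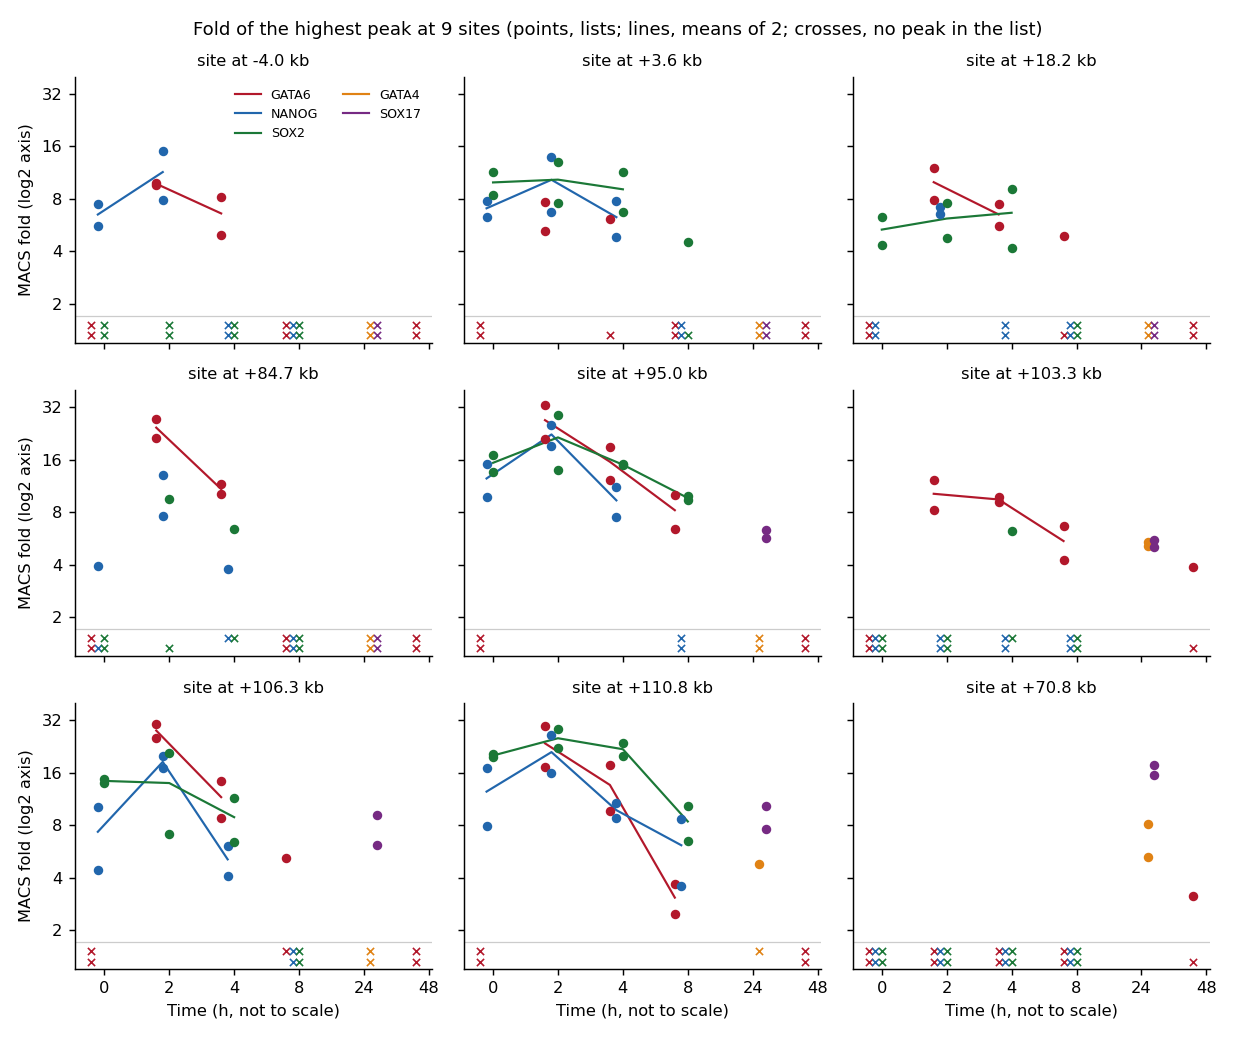
Fold of the best peak (y axis, log2 scale) by time in h (x axis, not to scale) at 9 sites named by distance from the Sox2 start site. Points are lists, lines join means where both lists have a peak, and crosses under the grey line are lists without one. The red GATA6 means at +95.0, +106.3 and +110.8 kb are lower at each later time drawn, and +70.8 kb has values only at 24 and 48 h.

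Next to the gene, the sites at −4.0 and +3.6 kb lie where the enhancers SRR1 and SRR2 are known, both within introns of Sox2ot. At −4.0 kb NANOG folds reached 5.57 and 7.46 at 0 h, then 15.0 and 7.84 at 2 h, GATA6 folds reached 9.94 and 9.61 at 2 h, then 4.95 and 8.26 at 4 h, and SOX2 was not called in any list. At +3.6 kb SOX2 folds were 8.48 and 11.4 at 0 h, 7.60 and 13.1 at 2 h, 11.5 and 6.69 at 4 h, and 4.55 in replicate 2 of 8 h. NANOG was present there at 6.31 and 7.83 at 0 h, 13.9 and 6.75 at 2 h, and 4.83 and 7.75 at 4 h, and GATA6 at 7.69 and 5.21 at 2 h and 6.18 in replicate 2 of 4 h. Replicates of different times overlapped for SOX2 and NANOG at this site. Neither site held a peak in any list of GATA6 at 8 or 48 h, NANOG at 8 h, GATA4 or SOX17.

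At the promoter, the site at −0.4 kb had its strongest summit 10 bp before the RefSeq start. GATA6 folds were 8.41 and 5.73 at 2 h and 6.60 in replicate 1 of 4 h. NANOG was called at 2 h alone, with 8.02 and 5.48. SOX2 folds were 7.06 and 4.44 at 0 h, 4.84 and 7.68 at 2 h, and 5.74 in replicate 1 of 4 h. The value of 4.84 came from a separate peak with its summit at −1.2 kb, joined to the site only through a wide GATA6 peak, so the SOX2 replicates of 2 h did not overlap here, although the site is among the 11 counted for that group. SOX17 had 7.44 in replicate 2 and GATA4 4.72 in replicate 1. No list of SOX2 or GATA6 at 8 h or later had a peak there. At +18.2 kb, in an intron of Sox2ot, GATA6 gave 12.1 and 7.86 at 2 h, 5.60 and 7.44 at 4 h and 4.89 in replicate 2 of 8 h, NANOG 7.18 and 6.60 at 2 h only, and SOX2 4.21 to 9.12 in the 6 lists up to 4 h.

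Other named sites held peaks of these factors mainly at 2 and 4 h. At +93.4 kb folds at 2 h were 12.8 and 10.9 for GATA6, 13.8 and 11.7 for NANOG, and 6.91 and 13.0 for SOX2, and neither NANOG nor SOX2 was called there at 0 h. At −99.0 kb they were 8.41 and 8.53, 6.91 and 6.75, and 5.37 and 7.09. The sites at +131.6 and +138.3 kb had GATA6 in both lists at 2 and 4 h, at 4.74 to 7.27 and 5.29 to 11.6. Within the control region, +105.0 kb held GATA6 and NANOG at 2 h in both lists (4.41 to 6.37), +114.9 kb GATA6 at 2 h alone (7.10 and 6.14), and +116.1 kb GATA6 at 2 h (3.52 and 3.82) and SOX2 at 0 h (4.45 and 4.03). No SOX2 or NANOG list at 8 h had a peak at any of these sites.

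The site at +103.3 kb, also in the control region, was called for GATA6 at 2 h (12.2 and 8.19), 4 h (9.13 and 9.77) and 8 h (4.24 and 6.67), for GATA4 (5.13 and 5.36) and SOX17 (5.55 and 5.03) at 24 h, and in replicate 2 of GATA6 at 48 h (3.88). No NANOG list held a peak there, and SOX2 was called in 1 list only, replicate 1 of 4 h at 6.26. The site at +70.8 kb was absent from all 24 lists up to 8 h. It was bound by SOX17 with 15.5 and 17.8, the highest folds of the window in those lists, by GATA4 with 8.11 and 5.25, and in replicate 2 of GATA6 at 48 h with 3.15. Its GATA word lay 100 to 95 bp before the summit.

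A few sites were singled out after their values had been seen. At +84.7 kb GATA6 folds reached 21.4 and 27.4 at 2 h, then 10.1 and 11.6 at 4 h. NANOG folds were 13.0 and 7.63 at 2 h, 3.93 in replicate 2 of 0 h and 3.76 in replicate 1 of 4 h. SOX2 was called in replicate 2 of 2 h (9.48) and replicate 1 of 4 h (6.42). Neither SOX2 0 h list nor any list at 8 h or later had a peak there. At +32.8 kb GATA6 stayed between 5.04 and 6.11 from 2 to 8 h in all 6 lists. At +136.9 kb NANOG (4.18 and 6.79) and SOX2 (7.77 and 11.8) were called in both 0 h lists, and afterwards a peak was called in replicate 2 of SOX2 at 2 h alone (7.68). No GATA6 list had a peak there.

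The window was also set beside those of 11 other pluripotency genes (Nanog, Pou5f1, Esrrb, Klf2, Klf4, Klf5, Tfcp2l1, Prdm14, Tbx3, Sall4 and Zfp42) and 7 PrE genes (Gata6, Gata4, Sox17, Sox7, Pdgfra, Foxa2 and Dab2). At 2 h the Sox2 window, with a mean of 36.5 GATA6 peaks in the 2 lists, exceeded 97.3% of the 21755 windows of the genome, 7 of the 11 other pluripotency genes (16.0 to 58.0) and all 7 PrE genes (5.50 to 23.5). At 48 h its mean of 1.00 was below all 11 pluripotency genes (2 to 9) and all 7 PrE genes (5 to 11), and exceeded 43.0% of windows. That mean came from lists of 0 and 2 peaks. They overlapped those of Esrrb (1 and 4) and Klf2 (1 and 3), and met those of Tfcp2l1 (2 and 5) and Zfp42 (2 and 4). The number was lower in both 48 h lists than in both 2 h lists for all 12 pluripotency windows and 5 of the 7 PrE windows, against 88.8% of all windows. Foxa2, a forkhead factor of the endoderm, and Dab2, an endocytic adaptor of the PrE, were the exceptions.

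For SOX2 at 8 h the Sox2 window had a mean of 2.50 SOX2 peaks, below all 11 other pluripotency genes (3.5 to 15) and 5 of 7 PrE genes (1.5 to 10.0), after a mean of 14.0 at 0 h that exceeded 8 of the 11 (5.00 to 19.5). The 8 h mean still exceeded 56.4% of the 21755 windows (median 2), and the 0 h mean 94.7%. Its 8 h lists of 2 and 3 peaks met those of Tfcp2l1 (4 and 3), Sall4 (5 and 3) and Zfp42 (6 and 3). Both 8 h lists held fewer SOX2 peaks than both 0 h lists in 9 of the 12 pluripotency windows and in none of the 7 PrE windows, against 61.2% of all windows. The PrE windows had lower SOX2 means at 0 h, 0.5 to 8.5 (median 1.5). Those of Gata6 and Dab2 had no SOX2 peak in replicate 1 of 0 h, so this comparison could not count them. For NANOG the mean was 9 at 0 h, which no other pluripotency gene exceeded (3 to 9), and 1.5 at 8 h, where the others ranged from 0.500 to 4.00. These means exceeded 99.0% of all windows at 0 h and 81.7% at 8 h. Both 8 h lists held fewer NANOG peaks than both 0 h lists in 11 of the 12 pluripotency windows and in 1 of the 7 PrE windows, that of the PrE receptor gene Pdgfra, against 39.8% of all windows. The PrE windows had NANOG means of only 0 to 4 at 0 h (median 0.5). Those of Gata6, Gata4, Sox17, Sox7 and Dab2 had no NANOG peak in replicate 1 of 0 h, so this comparison could not count them. Windows of neighbouring genes share peaks, and no test of Sox2 against the other windows was made.

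**Figure D5:**
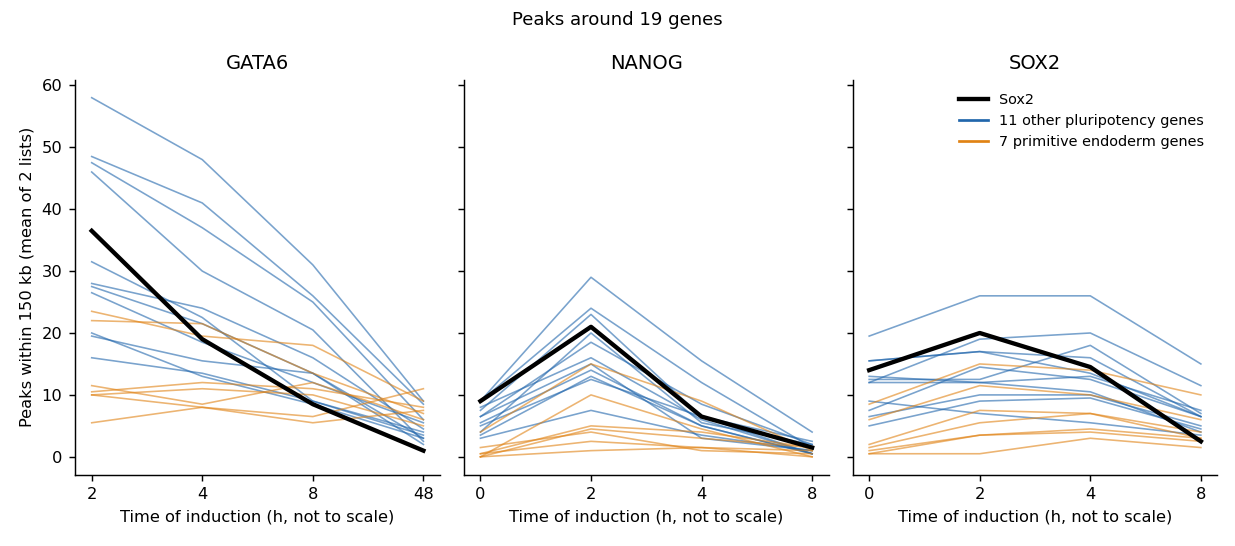
Mean number of peaks in 2 lists within 150 kb of the start site (y axis) by time of induction in h (x axis, not to scale, GATA6 from 2 h) for GATA6, NANOG and SOX2, with Sox2 in black, 11 other pluripotency genes in blue and 7 PrE genes in orange. The black line starts at 36.5 in the GATA6 panel and ends at 1.00 (lists of 0 and 2), the lowest mean of the 19 genes. It ends at 2.50 in the SOX2 panel.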

How the data were processed

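CUT&RUN of GATA6, NANOG, SOX2, GATA4 and SOX17 was analysed in 30 of 57 samples, each made from 100000 cells, and the other 27 samples, of histone marks, IgG controls or blastocysts, were left out. Per the labels and the study's methods, the authors aligned reads to mm10 with Bowtie2, removed blacklisted reads, kept fragments under 120 bp and called narrow peaks per library with MACS against a rabbit anti-rabbit control. The deposited columns hold the fold (a ratio of pileup to local background, with 1 added to both), −log10 p and −log10 q, and a score that is −log10 q on another scale and was not used. Each list holds peaks at q of 0.05 or less.

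Summits were assigned to windows and overlapping peaks (at least 1 bp) merged with Python 3.11.15, pandas 2.3.3 and NumPy 2.4.6, with gene models of GENCODE M21. Times were compared within a factor with an exact permutation test of the F statistic over lists (2 per time), adjusted by Benjamini-Hochberg over 9 tests. A comparison of 2 lists against 2 cannot go below p = 0.333 by an exact permutation test. Scripts were tested on simulated data. Sites were named where both replicates of at least 4 groups had a peak, or of 1 group within 5 kb of the start site or in the control region, or where a factor had its highest mean fold. The members and lists were chosen with earlier results of these data known. Where a region had no peak, its fold was set to the lowest of that list. Alternatives were a stricter q, the top 10000 peaks, counts per 10000 peaks, other window limits, a replicate block, GATA6 times by the sample record and leaving out each list. Of the planned comparison genes and sequences, 1 of each is not reported here.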

Additional observations from a re-analysis of the deposited data

How the results depend on the processing

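The GATA6 count in the Sox2 window and its best fold in the control region kept their call under 5 alternatives each. The times of the sample records only rename whole GATA6 groups, so they cannot change these tests, but they change the order: the mean counts were then 36.5, 1, 19 and 8.5 at 2, 4, 8 and 48 h, with no steady decrease, and the difference from 2 to 48 h was 28 peaks rather than 35.5. Counts per 10000 peaks gave differences between 2 h and the last time of 0.0445 for NANOG (exact permutation p = 0.848) and 3.26 for SOX2 (p = 0.0476) in the window, and of 0.630 for GATA6 (p = 0.206) and −3.83 for NANOG (p = 0.733), a reversal, in the control region. The top 10000 peaks gave 4.5 for SOX2 in the window (exact permutation p = 0.0286) and 2 for NANOG in the control region (p = 0.2). With the replicate number as a block, NANOG in the control region had a difference of 4 (exact permutation p = 0.0833) and the best SOX2 fold a log2 difference of 1.61 (p = 0.125), and no other call changed. Same-numbered lists did not deviate together (r of −0.158 to 0.0875), which cannot show whether same-numbered samples were run together.

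Leaving out 1 list gave window differences of 32 to 39 for GATA6, 13.5 to 25.5 for NANOG and 10.5 to 24.5 for SOX2, control region differences of 7 to 8, 3.5 to 4.5 and 2 to 3, and log2 fold differences of 2.84 to 4.02, 1.28 to 2.56 and 1.28 to 1.95. By unadjusted p, which is what call means in these comparisons, NANOG stayed under 0.05 in 2 of 8 cases in the window and 3 of 8 in the control region, and the best SOX2 fold in 3 of 8. The last 2 did not pass after adjustment with all lists either (adjusted exact permutation p = 0.0514 and 0.0714). Sites with both lists of a group numbered 12 among the top 10000 peaks and 29 to 44 without 1 list. With either replicate the number was 70, which was fixed in advance because every site was built from a peak of some list. Within 200 bp of the summit, 42 sites held a GATA word, 52 a SOX core, 2 an octamer and 0 the pair. The cause of these changes was not tested. Site counts of single groups moved in 11 of 15 groups with either replicate, 9 with the top 10000 peaks, 6 with the stricter q and 3 with the record times. Lists with low background coverage or few peaks limit what could be detected, above all GATA6 at 0 and 48 h and NANOG at 8 h.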
